A study of Homo sapiens with 8 samples.

Results

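USP22 and the SAGA complex were examined in DLD-1, a human colorectal adenocarcinoma line, in cells given miR-143 duplex at 50 nM (4 arrays) and in mock-transfected cells (4 arrays), with RNA taken after 24 h. Line, medium and lipid reagent were the same in both groups, and the study describes the 4 arrays of a group as biological replicates. Arrays with a control duplex were not part of the data used, so duplex delivery and the miR-143 sequence cannot be told apart. Each Affymetrix HG-U133 Plus 2.0 array gave a log2 expression value for every probe set, a group of probes against a single transcript region. The members were 10 genes, USP22, ATXN7, ATXN7L3, ENY2, KAT2A, KAT2B, TADA1, TADA3, SUPT3H and TRRAP, which were represented by all probe sets annotated to a single gene. All 10 were measured, by 21 of the 41091 single-gene probe sets and as 10 of 19752 genes, with 4 probe sets for USP22. Where a gene had several probe sets, the brightest stood for it and the others were described as well. USP22 was already singled out by the study from these same arrays, so its direction here is not independent evidence.

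SAGA is a transcriptional coactivator that works on chromatin at active genes. Its acetyltransferase module, built around KAT2A (GCN5) or KAT2B (PCAF), places acetyl groups on histone H3, while its deubiquitinase module removes ubiquitin from histone H2B. USP22 is the enzyme of the deubiquitinase module and is active only when bound to ATXN7, ATXN7L3 and ENY2, and high USP22 expression has been linked to poor outcome in colorectal and other cancers. A core of TAF-related and SPT proteins holds the modules together, and TRRAP is the large scaffold that MYC and other activators contact.

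The transfected duplex is the reagent that separates the groups, so the arms of miR-143 are shown. A miRNA recognizes messenger RNA mainly through its seed, bases 2 to 8 from the 5′ end, which is in capitals. The sequences are those of RefSeq on GRCh38.p14, where the 3p arm lies at chr5:149428978-149428998 and the 5p arm at chr5:149428944-149428965, both on the plus strand.
hsa-miR-143-3p: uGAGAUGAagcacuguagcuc
hsa-miR-143-5p: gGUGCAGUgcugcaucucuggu
The seeds of the 2 arms are different. The 3′UTRs of the members were not searched for seed matches here.

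Array medians lay between 7.15 and 7.23, but replicate 4 of both groups had a wider spread, with interquartile ranges of 1.44 against 1.17 to 1.27 in the other 6 arrays. A principal component analysis of all genes placed replicate 4 apart on its leading axis (66.9% of variance), at 25.66 (miR-143) and 26.68 (mock), with the rest between −18.82 and −4.25. The colorectal epithelial markers averaged 10.34 to 10.89 in miR-143 arrays and 10.50 to 10.91 in mock arrays. All 10 of these markers had a negative difference (median −0.069), and 7 of 10 after cyclic loess and after quantile normalization, with KRT8 at −0.32 and the groups apart in VIL1 alone (limma adjusted p = 1 for both). Their part in the values of the members was not tested. Lists of fibroblast, immune and endothelial markers averaged 6.90 to 7.21 in miR-143 arrays and 6.90 to 7.24 in mock arrays, in the dim range of the array. EPCAM, CDH1, KRT8, KRT18, KRT19 and KRT20 (mean level 10.58) were bright, as in an epithelial line. CDX1, CDX2, VIL1 and LGALS4 had mean levels of 7.12 to 8.30. Both groups carry replicate numbers 1 to 4, and each gene was fitted with limma without the number (unpaired) and with the number as a block (paired).

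No member passed an adjusted p of 0.05 in either fit. In the unpaired fit this held for every gene measured (0% called), with a lowest adjusted p of 0.126. In the paired fit 123 genes (0.623%) were called lower and 33 (0.167%) higher, and none of them was a member. The largest shifts among the members were in USP22, which averaged 0.805-fold of its mock level, and in KAT2B, an acetyltransferase, which averaged 1.16-fold. In bulk RNA, a shift in the mix of cells and a shift in RNA per cell cannot be told apart. ENY2 averaged 0.895-fold, and the other 7 members had a fold between 0.957 and 1.05. Without adjustment, a p under 0.05 was reached by KAT2B alone in the unpaired fit, where 0.714% of all genes reached it on the higher side and 1.7% on the lower side. In the paired fit it was reached by USP22 and ENY2 on the lower side, as by 6.92% of all genes. KAT2B reached it on the higher side, as did 2.64% of all genes. Every member lies at or above the median level of all genes. Of the 9876 genes there, 1228 reached it on the lower side and 347 on the higher side in the paired fit. In the unpaired fit 299 of them reached it on the lower side and 104 on the higher side.

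**Figure D1:**
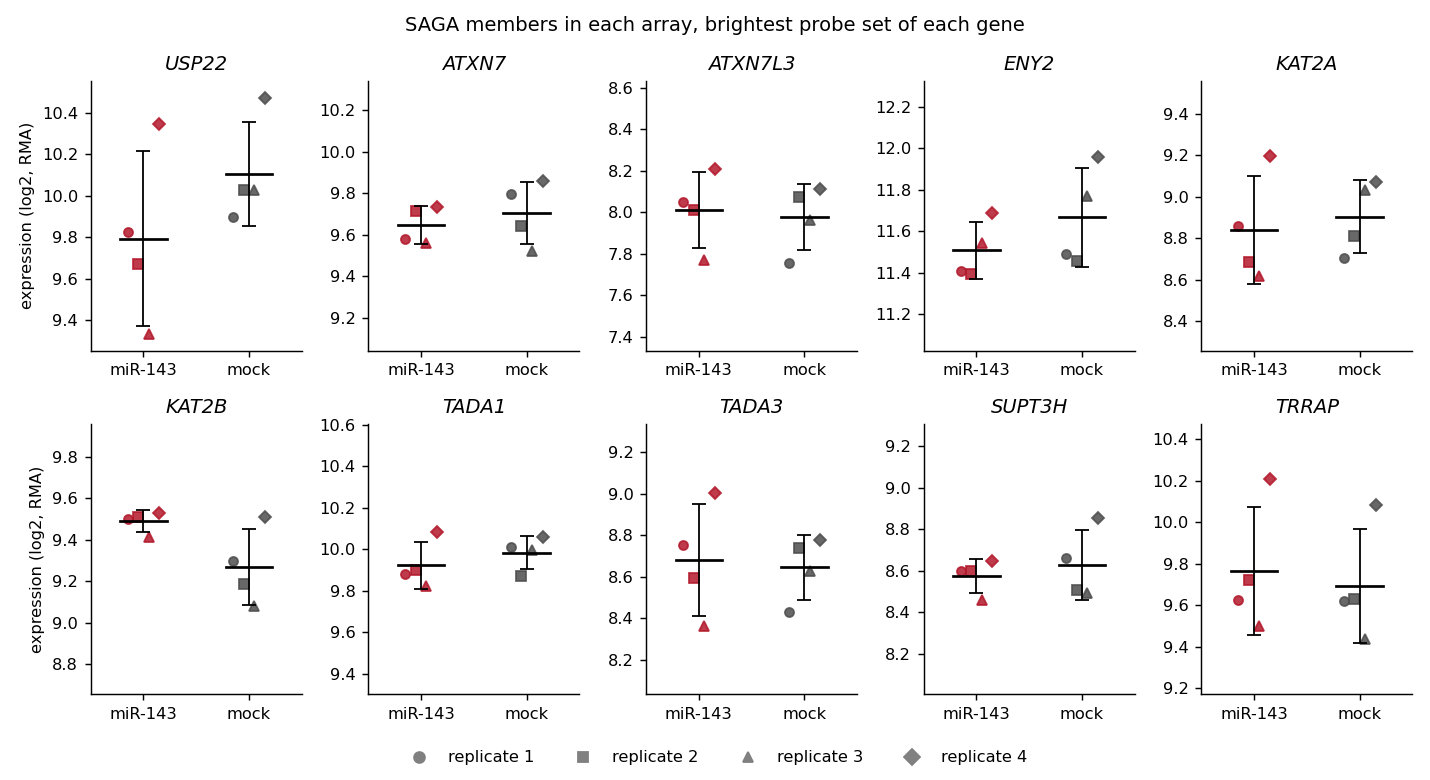
Expression (log2, RMA) of the brightest probe set of each of the 10 SAGA members in the 4 miR-143 and 4 mock arrays, with group means and SD, the marker shape giving the replicate number and each panel having its own axis range. Replicate 4 is the highest array of its group in every panel, and the groups overlap in all 10 genes.

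USP22 was measured well above the dim range by 1 of its probe sets, 200083_at, which was brighter than 83.9% of genes. The miR-143 arrays 1 to 4 read 9.83, 9.67, 9.33 and 10.35, against 9.90, 10.03, 10.03 and 10.47 in mock arrays 1 to 4. Replicate 3 was the lowest and replicate 4 the highest miR-143 array, and replicate 4 of miR-143 lay above 3 of the 4 mock arrays, so the groups overlapped. The means were 9.79 ± 0.42 in miR-143 arrays and 10.11 ± 0.25 in mock arrays (SD, n = 4 each). The log2 difference was −0.31 with a standard error of 0.20 and a 95% confidence interval of −0.76 to 0.13 in the unpaired fit (limma adjusted p = 1). An exact permutation test, two-sided, gave p = 0.257, where 0.0286 is the smallest p that 4 arrays against 4 can give.

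Set beside the mock array of the same number, USP22 was lower in 4 of 4 miR-143 arrays, but by unequal amounts. The log2 differences were −0.07, −0.36, −0.69 and −0.13 for replicates 1 to 4, so replicate 3 had by far the widest gap and replicate 1 almost none. With the replicate number as a block, the standard error of the same difference was 0.09 and its interval −0.50 to −0.12, and the limma adjusted p was 0.186. Only 0.5% of all genes had a more negative or equal unpaired difference. The share of all genes lower or higher in 4 of 4 same-numbered arrays is not given, here or below. No source says what a replicate number stands for. Over genes, miR-143 replicates 1 and 2 correlated more with a mock array of another number, so such counts are a description only.

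The other USP22 probe sets were dim, and their differences did not have a common sign. Probe set 216964_at read 7.03, 6.93, 7.04 and 6.94 in miR-143 arrays, against 7.12, 7.17, 7.13 and 7.03 in mock arrays. Its lowest mock array, replicate 4, lay inside the miR-143 range, and the log2 difference was −0.13 with a standard error of 0.05 (limma adjusted p = 1, exact permutation p = 0.0571). It was lower in 4 of 4 same-numbered arrays, with log2 differences of −0.09, −0.25, −0.08 and −0.09 for replicates 1 to 4. After cyclic loess and after quantile normalization all its miR-143 arrays lay below all mock arrays, as in 683 and 681 of the 41091 probe sets. Probe set 216957_at read 7.06, 6.94, 7.08 and 7.00 in miR-143 arrays and 7.05, 7.09, 7.09 and 6.92 in mock arrays, a difference of −0.015. Probe set 220861_at read 6.81, 6.80, 6.75 and 6.70 in miR-143 arrays and 6.70, 6.67, 6.79 and 6.75 in mock arrays, a difference of 0.038. Both sets of values overlapped almost fully. These 3 probe sets were brighter than 35.8%, 34.8% and 17.1% of probe sets. Their levels lay inside the range of mean levels, 6.43 to 8.14, of 14 fibroblast, immune and endothelial marker genes, which limits what they can show. The top of that range is COL1A1 alone, and the next highest marker was at 7.61. With all 4 probe sets averaged, the USP22 difference was −0.10.

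**Figure D2:**
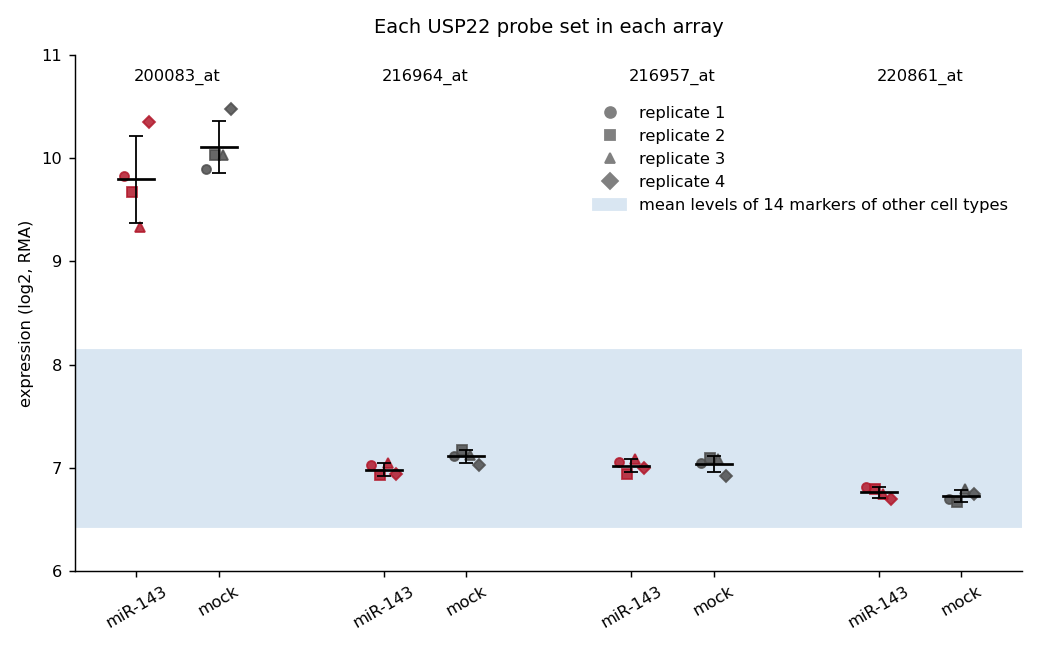
Expression (log2, RMA) of each of the 4 USP22 probe sets in the miR-143 and mock arrays, with group means and SD (n = 4 each) and marker shapes for replicate numbers. The shaded band spans the mean levels of 14 marker genes of other cell types, and 3 of the 4 probe sets lie inside it. The top of the band is COL1A1 (8.14), with the next marker at 7.61.

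The size of the USP22 difference moved with the arrays used. It ranged from −0.50 to −0.16 when a single array was left out. Without miR-143 replicate 4 it was −0.50 and all miR-143 arrays lay below all mock arrays (limma adjusted p = 0.771), as in 4.62% of all genes with that array left out. Without miR-143 replicate 3 it was −0.16, and without mock replicate 4 it was −0.19. With both replicate 4 arrays left out it was −0.38, again with no overlap (limma adjusted p = 0.397), as in 6.59% of all genes on the lower side with those 6 arrays. With both replicate 3 arrays left out it was −0.19. After cyclic loess the difference was −0.27 and after quantile normalization −0.27. Over all 26 settings it stayed negative, between −0.50 and −0.10, with limma adjusted p-values of 0.146 to 1. Not all of these settings are separate checks. Adding only the block, taking the most variable probe set or leaving out dim genes repeats a USP22 difference already counted.

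The hybridization controls, bacterial and phage transcripts added to each sample, also read lower in the miR-143 arrays. All 18 of their probe sets had a negative difference, with a median of −0.18 and a range of −0.23 to −0.08. Several of these probe sets read the same transcript, so they are not independent of each other. An exact permutation test of their mean level over the arrays gave p = 0.457. Their mean level was 10.71, 10.67, 10.57 and 11.36 in miR-143 arrays and 10.88, 10.78, 10.79 and 11.57 in mock arrays. Of the miR-143 arrays replicate 3 was lowest, and replicate 4 was highest in both groups, as for USP22. The lowest mock array was replicate 2 for these controls and replicate 1 for USP22. Their differences for replicates 1 to 4 were −0.165, −0.104, −0.217 and −0.209, against −0.074, −0.359, −0.693 and −0.126 for USP22. After cyclic loess the median of the hybridization controls was −0.12 and after quantile normalization −0.11. The 24 labelling control probe sets had a mean difference of −0.215 as deposited (exact permutation p = 0.571). It was 0.066, −0.025, −0.426 and −0.476 for replicates 1 to 4. The part of these differences between arrays in the USP22 value was not tested. The gap between the 3′ and 5′ probe sets of a gene is a measure of RNA integrity. For ACTB it was 2.25 to 2.59 in miR-143 arrays and 1.68 to 2.79 in mock arrays. For GAPDH it was 0.48 to 0.70 in miR-143 arrays and 0.41 to 0.72 in mock arrays. In both genes replicate 3 had the widest gap of the miR-143 arrays and the narrowest of the mock arrays. Replicate 3 also had the largest USP22 difference, −0.69, and the part of RNA integrity in it was not tested.

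The partners that USP22 needs for activity had smaller differences. ENY2, a small protein that anchors the deubiquitinase module and also serves the mRNA export complex TREX-2, was the brightest member. Its probe set 218482_at read 11.41, 11.39, 11.54 and 11.69 in miR-143 arrays, against 11.49, 11.45, 11.77 and 11.96 in mock arrays. Each miR-143 array was below the mock array of its number, although the group ranges overlapped. The log2 difference was −0.16 with a standard error of 0.12 and a 95% interval of −0.42 to 0.11 in the unpaired fit (limma adjusted p = 1, exact permutation p = 0.286). In the paired fit the limma adjusted p was 0.319. After cyclic loess the difference was −0.09 and after quantile normalization −0.08. Without mock replicate 4 it was −0.06. The dimmer ENY2 probe sets 226775_at and 226776_at had differences of −0.05 and 0.02.

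ATXN7, the polyglutamine protein that ties the deubiquitinase module to the rest of SAGA, read 9.58, 9.71, 9.56 and 9.74 in miR-143 arrays, against 9.79, 9.64, 9.52 and 9.86 in mock arrays (204516_at). The mock range enclosed the miR-143 range, and the difference was −0.06 (95% interval −0.24 to 0.13, exact permutation p = 0.514, n = 4 each). ATXN7L3, the adaptor without which USP22 has little activity, read 8.05, 8.01, 7.77 and 8.21 in miR-143 arrays, against 7.76, 8.07, 7.96 and 8.11 in mock arrays (224969_at). Its mean level, 7.99, was also inside the range of the markers of other cell types, though above all of them except COL1A1. Replicates 1 and 4 were higher and replicates 2 and 3 lower in miR-143 arrays, and the difference was 0.03 (95% interval −0.20 to 0.27, exact permutation p = 0.771, n = 4 each). The other ATXN7 probe sets, 209964_s_at and 243259_at, had differences of 0.06 and −0.11.

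In the acetyltransferase module KAT2B had the highest difference, and its difference from its paralogue KAT2A was not tested. KAT2B read 9.50, 9.51, 9.41 and 9.53 in miR-143 arrays, against 9.30, 9.19, 9.08 and 9.51 in mock arrays (203845_at). The miR-143 arrays lay close together and above mock replicates 1 to 3, and only mock replicate 4 reached their range. The means were 9.49 ± 0.05 in miR-143 arrays and 9.27 ± 0.18 in mock arrays (SD, n = 4 each). The log2 difference was 0.22 with a standard error of 0.09 and a 95% interval of 0.02 to 0.42 (limma adjusted p = 1, exact permutation p = 0.114). KAT2B was higher in 4 of 4 same-numbered arrays, by 0.20, 0.32, 0.33 and 0.02 for replicates 1 to 4, and the paired fit gave a limma adjusted p of 0.182. Of all genes, 99.6% had a lower or equal difference.

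The KAT2B difference varied less between settings than that of USP22. It lay between 0.16 and 0.30 over all 26 settings, with limma adjusted p-values of 0.112 to 1. As for USP22, the settings that only add the replicate block, take the most variable probe set or leave out dim genes repeat the difference. KAT2B has 1 probe set, so averaging the probe sets of a gene could not move its difference. USP22 has 4, and that average gave the −0.10 end of its range. After cyclic loess it was 0.26 (limma adjusted p = 0.217) and after quantile normalization 0.26 (limma adjusted p = 0.268), and after either step all miR-143 arrays lay above all mock arrays, as in 2.15% and 2.13% of all genes. The groups were also apart without mock replicate 4, where the difference was 0.30 and 1.92% of all genes lay above in the same way. With both replicate 4 arrays left out the difference was 0.28, again with no overlap, as in 4.19% of all genes on the higher side.

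**Figure D3:**
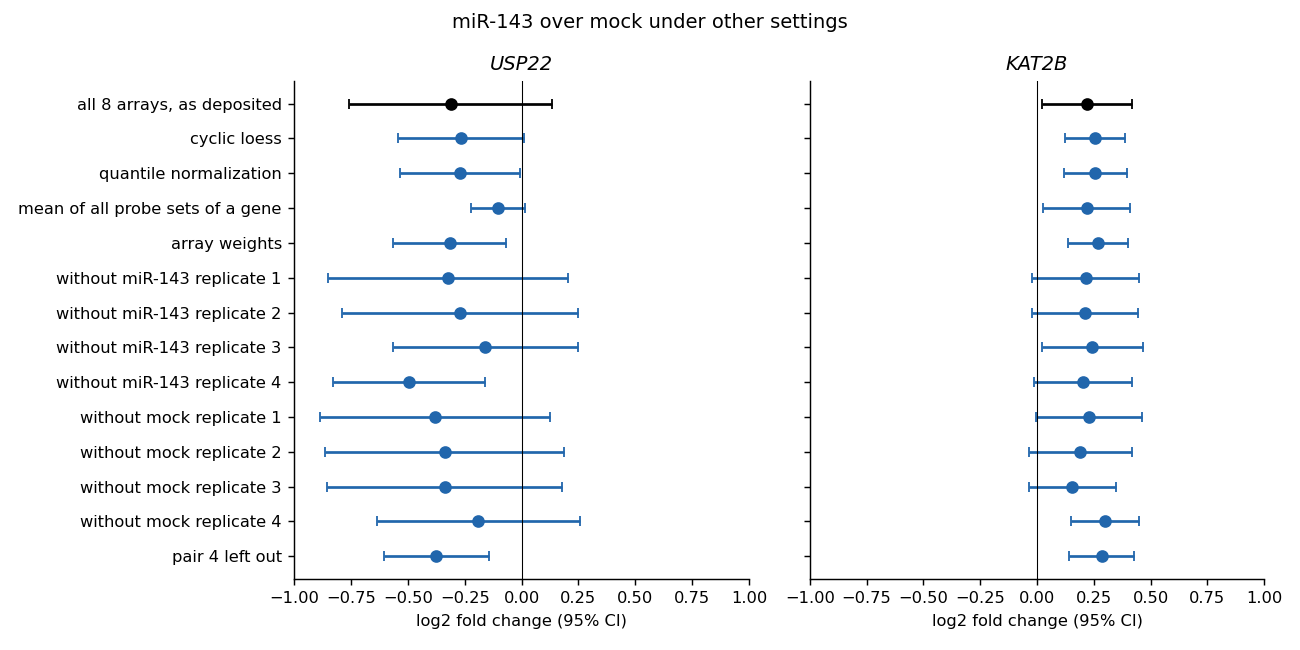
Log2 fold change of USP22 and KAT2B, miR-143 over mock, with 95% confidence intervals from limma, for all 8 arrays as deposited and for other settings of the unpaired fit. USP22 is negative in every setting drawn, between −0.50 and −0.10, and KAT2B is positive, between 0.16 and 0.30.

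KAT2A, the paralogue that can take the place of KAT2B in SAGA, read 8.86, 8.68, 8.62 and 9.20 in miR-143 arrays, against 8.70, 8.81, 9.03 and 9.07 in mock arrays (202182_at). The miR-143 arrays held both the lowest and the highest value, and the difference was −0.06 (95% interval −0.36 to 0.23, exact permutation p = 0.714, n = 4 each). TADA3, which links the acetyltransferase to its adaptors, read 8.75, 8.59, 8.36 and 9.01 in miR-143 arrays and 8.43, 8.74, 8.63 and 8.78 in mock arrays (215273_s_at). Again the miR-143 range enclosed the mock range, and the difference was 0.03 (95% interval −0.26 to 0.33, exact permutation p = 0.886, n = 4 each). The dim TADA3 probe set 211221_at was the single member probe set in which the groups did not overlap, as in 1.25% of all probe sets with miR-143 below mock. It read 6.677 to 6.786 in miR-143 arrays and 6.793 to 6.918 in mock arrays, a difference of −0.10 (limma adjusted p = 1, exact permutation p = 0.0286). It was brighter than 19.8% of probe sets. Over all probe sets the unpaired fit called 1 (0.00243%), which was not a member's.

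The core and activator-binding members had small differences that were within the spread of the arrays. TADA1, a histone-fold adaptor of the core, read 9.88, 9.90, 9.82 and 10.08 in miR-143 arrays, against 10.01, 9.87, 9.99 and 10.06 in mock arrays (225455_at). SUPT3H, the core subunit that in yeast helps place TATA-binding protein, read 8.60, 8.60, 8.46 and 8.64 in miR-143 arrays and 8.66, 8.51, 8.49 and 8.85 in mock arrays (206506_s_at). Their differences were −0.06 (95% interval −0.22 to 0.10) and −0.05 (95% interval −0.25 to 0.14), with exact permutation p-values of 0.429 and 0.629 (n = 4 each). TRRAP read 9.63, 9.72, 9.50 and 10.21 in miR-143 arrays, against 9.62, 9.63, 9.44 and 10.08 in mock arrays (202642_s_at). TRRAP was higher in 4 of 4 same-numbered arrays, by at most 0.12, and the group ranges overlapped almost fully. The TRRAP difference was 0.07, with a 95% interval of −0.31 to 0.45 in the unpaired fit and −0.04 to 0.18 in the paired fit (limma adjusted p = 0.711). The second probe sets of these genes, 1559289_at for TADA1, 211106_at for SUPT3H and 214908_s_at for TRRAP, differed by 0.02, 0.08 and −0.03.

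**Figure D4:**
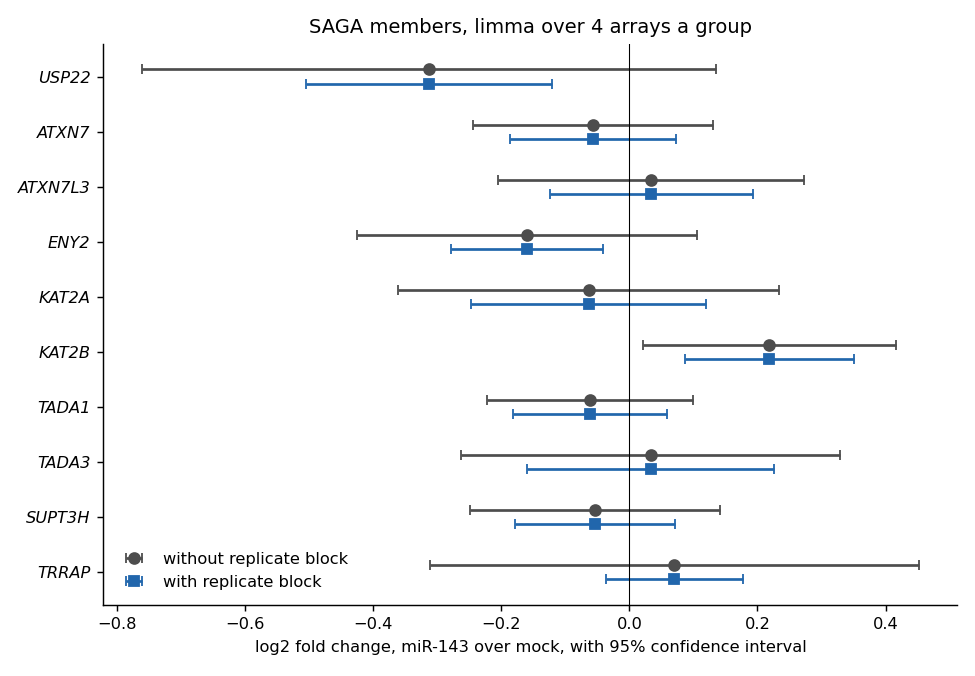
Log2 fold change, miR-143 over mock, of the 10 SAGA members with 95% confidence intervals from limma, without (circles) and with (squares) the replicate number as a block. The intervals of USP22, ENY2 and KAT2B leave 0 in the paired fit and that of KAT2B in the unpaired fit, before adjustment over all genes.

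As a group, 6 of 10 members had a negative difference, with a median of −0.055, beside 55.6% of all genes and a median of −0.0091. Among genes at or above the median level, to which all 10 members belong, 64.3% had a negative difference, and the median was −0.029. All 10 members overlapped between groups. Over all genes, 1.24% had every miR-143 array below every mock array and 0.719% had every miR-143 array above. The count of negative members depended on the array left out, from 5 without miR-143 replicate 3 or without mock replicate 4 to 9 without miR-143 replicate 4. After cyclic loess or quantile normalization 6 of 10 were still negative, while the share over all genes was 45.1% and 45.2%. Replicate 4 was the highest array of both groups in 10 of 10 members, beside 36.1% of all genes and 63% of genes at or above the median level.

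The members did not follow USP22 from array to array to the same degree. Unless said otherwise, the correlations here are over 8 arrays that share 2 outlying replicate 4 arrays, and they are given as a description. After the group means were subtracted, Pearson's r with USP22 was 0.93 for TADA3, 0.91 for KAT2A, 0.90 for TRRAP and 0.87 for ATXN7L3. It was 0.81 for TADA1, 0.68 for SUPT3H, 0.60 for ENY2, 0.57 for KAT2B and 0.52 for ATXN7. The median over all genes was 0.24 and the 90th percentile 0.91, and TADA3 was above that percentile. With replicate 4 left out as well, TADA3 (0.91) and ATXN7L3 (0.84) were above the 90th percentile of 0.76, KAT2A had 0.69, TRRAP 0.41, and ENY2 −0.29. Without subtraction of the group means, KAT2B had the lowest r with USP22 among the members, 0.05.

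Of all genes, the profiles most like USP22 over the 8 arrays were those of TACO1 (r = 0.998), KIF2C (0.987), SNU13 (0.985), DCTD (0.984) and CDC6 (0.984). All 5 had a negative difference, from −0.37 for DCTD to −0.12 for CDC6, but this ranking uses the group difference of USP22 itself. After the group means were subtracted, the closest were TACO1 (0.999), EIPR1 (0.996), STAG3L3 (0.996), CRACR2A (0.995) and TBCD (0.994). Their differences had both signs, with −0.18 for TACO1, −0.08 for EIPR1, 0.015 for STAG3L3, 0.0072 for CRACR2A and 0.06 for TBCD. TACO1, a factor for translation of a mitochondrial cytochrome c oxidase subunit, led both rankings and kept r = 0.998 within groups without replicate 4. No member was among these genes.

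Across 25 listed SAGA subunits and paralogues, 24 were measured. Of the 24, 13 had a negative difference with a median of −0.052, and none was called in the unpaired fit. In the paired fit 1 was called lower and 0 higher, beside 0.623% and 0.167% of all genes. The called gene was TAF10, a histone-fold protein that SAGA shares with the general factor TFIID. The study had already picked TAF10 from these same arrays as lowered, and it reports lower TAF10 by quantitative RT-PCR. Its direction here is therefore not independent evidence. TAF10 read 11.17, 11.01, 10.84 and 12.13 in miR-143 arrays, against 11.63, 11.81, 11.54 and 12.53 in mock arrays. Replicate 4 of miR-143 lay above mock replicates 1 to 3, and each miR-143 array was below the mock array of its number. The log2 difference was −0.59, with a standard error of 0.30 and limma adjusted p = 1 in the unpaired fit, and a standard error of 0.07 and limma adjusted p = 0.00197 in the paired fit. With both replicate 4 arrays left out the unpaired difference was −0.65 (limma adjusted p = 0.0201), a setting that called 43 of all genes. After cyclic loess the unpaired difference was −0.52 and TAF10 was not called (limma adjusted p = 0.781). The mean over all TAF10 probe sets differed by −0.19.

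The SAGA modules did not share a direction. In the deubiquitinase module, counted with the ATXN7 paralogues, 3 of 7 genes were negative (median 0.005), and USP22 and ENY2 were the lowest. In the acetyltransferase module 1 of 5 was negative, KAT2A (median 0.034). There TADA2B, the adaptor particular to SAGA, averaged 8.82 ± 0.09 in miR-143 arrays and 8.67 ± 0.06 in mock arrays (SD, n = 4 each), a difference of 0.14 (limma adjusted p = 1, exact permutation p = 0.0571). In the core module 7 of 9 genes were negative (median −0.059), and 1 listed core gene was not measured. Of the remaining subunits, SF3B3 and SF3B5, splicing factor proteins found in SAGA, differed by −0.11 and −0.09, beside TRRAP at 0.07. These counts of negative genes were the same after cyclic loess and after quantile normalization. With both replicate 4 arrays left out, 3 of 5 acetyltransferase module genes were negative.

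**Figure D5:**
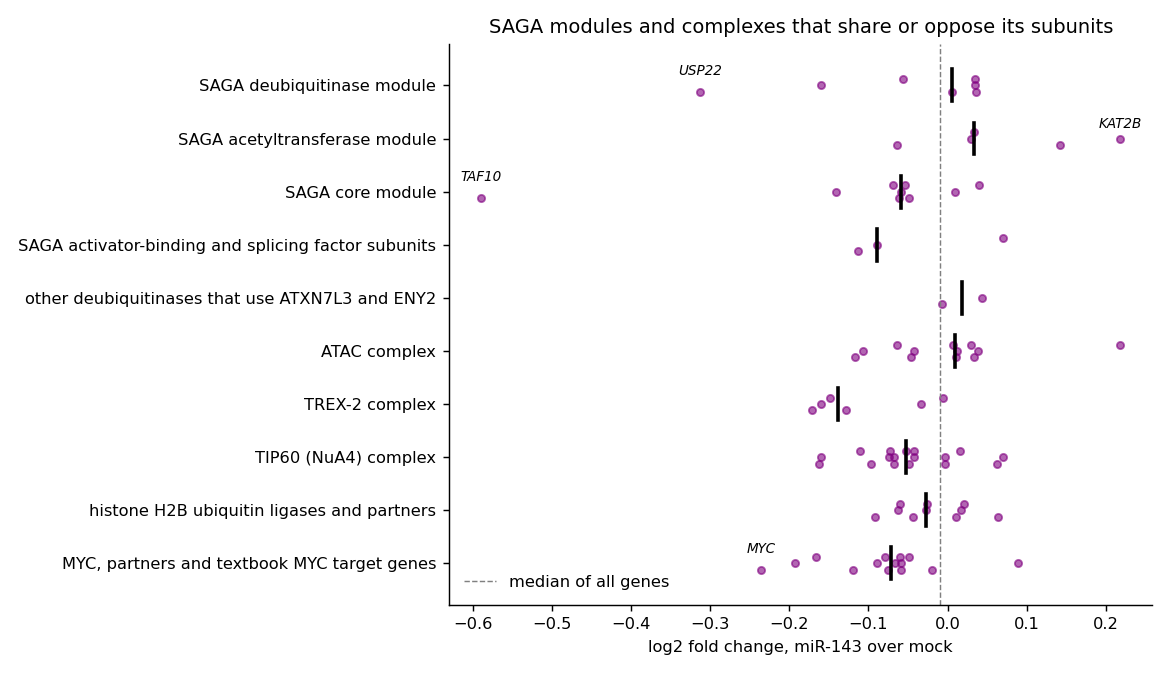
Log2 fold change, miR-143 over mock, of every measured gene in 10 lists of SAGA modules and related complexes, with a bar at the median of each list and a dashed line at the median of all genes. TAF10 (−0.59), USP22 (−0.31) and MYC (−0.24) are the most negative named genes and KAT2B (0.22) the highest.

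Complexes that borrow SAGA subunits or act on the same residues were read from lists. As deposited, 55.6% of all genes and 64.3% of genes at or above the median level had a negative difference. After cyclic loess and quantile normalization the share of all genes was 45.1% and 45.2%. USP27X and USP51, deubiquitinases that also use ATXN7L3 and ENY2, differed by 0.04 and −0.01. In ATAC, the other complex with KAT2A or KAT2B, 5 of 12 measured genes were negative (median 0.009), and ZZZ3, a DNA-binding subunit, differed by −0.11. In TREX-2, which shares ENY2, 6 of 6 genes were negative (median −0.14), and 4 of 6 after cyclic loess and after quantile normalization. CETN2 and CETN3, centrins of TREX-2, differed by −0.17 and −0.15 (limma adjusted p = 1 for both).

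In TIP60, the acetyltransferase complex that shares TRRAP, 14 of 17 genes were negative (median −0.052), and 10 of 17 after either normalization. Its subunits MEAF6 and ING3 had differences of −0.16 each (limma adjusted p = 1). Of the ligases and partners that place ubiquitin on histone H2B, opposite to USP22, 6 of 10 were negative (median −0.027). After cyclic loess and after quantile normalization 3 of 10 were negative, and the median turned to 0.013 and 0.016. UBE2B, a conjugating enzyme, and WAC, an RNF20 partner, differed by −0.09 and −0.06, and WAC turned to a positive value after either normalization.

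MYC, the activator that recruits SAGA through TRRAP, was lower in 4 of 4 same-numbered arrays but passed in neither fit. It read 10.83, 10.88, 10.67 and 11.31 in miR-143 arrays, against 11.14, 11.02, 10.86 and 11.61 in mock arrays. The ranges overlapped, and the difference was −0.24 with a standard error of 0.17 in the unpaired fit (limma adjusted p = 1) and 0.05 in the paired fit (limma adjusted p = 0.0719). MXD1, a MYC antagonist, differed by −0.19 (limma adjusted p = 1). Of MYC, its partners and textbook target genes, 13 of 14 were negative (median −0.071), and 8 of 14 after either normalization. The median level of this list was 11.19, and those of TREX-2 and TIP60 were 10.88 and 9.73, against 7.56 over all genes. As deposited, 64.3% of genes at or above the median level were negative. The part of brightness in these counts was not tested. In none of these lists other than the SAGA core was a gene called in either fit.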

How the data were processed

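RNA of DLD-1 cells was measured on 8 arrays, 4 per group, with groups and replicate numbers taken from the labels. The deposited log2 values were made by the authors with RMA in the affy package, as the submitters' processing notes say, and were used as deposited. Versions are not given in the sources used here. Arrays give no read depth, so the number of arrays and the level over background limit precision.

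Of 54675 probe sets, 41091 carried a single gene symbol, 1801 several, 11721 none and 62 were controls. No probe set with several symbols held a member. Each of 19752 genes was represented by its brightest probe set. Groups were compared by two-sided moderated tests in limma 3.58.1 (functions lmFit and eBayes) under R 4.3.3, with Benjamini-Hochberg adjustment over all genes (or all single-gene probe sets) and a threshold of 0.05. Adjusted p-values in the text are from limma. Single genes also had a two-sided exact permutation test. The code was tested on simulated data. Tables and plots were made with Python 3.11.15, pandas 2.3.3, numpy 2.4.6 and matplotlib 3.10.9.

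The methods name no block, so the unpaired fit was the main one and the paired fit an alternative. Replicate numbers were to be read as pairs where deviations from the group means correlated above 0.1 for every pair. Over genes the correlations were 0.109, 0.166, 0.576 and 0.808 for replicates 1 to 4. Over probe sets replicate 1 had 0.079, and after cyclic loess replicates 1 and 2 had 0.067 and 0.027, so the limit was met on genes narrowly and not otherwise. Over genes, miR-143 replicates 1 and 2 correlated more with a mock array of another number (0.25 and 0.538) than with their own, and replicates 3 and 4 did not (0.489 and −0.314). No source says what a number stands for.

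The members, the 10 gene lists and the tests were chosen with earlier results of these data known. The text names every member, every USP22 probe set, the called genes of each list or otherwise its 2 genes of lowest p, and the 5 genes most correlated with USP22 by each measure.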

Additional observations from a re-analysis of the deposited data

How the results depend on the processing

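The gene values of USP22, KAT2B, ENY2, ATXN7 and TADA1 kept their direction, and no member passed an adjusted p of 0.05, under any alternative run. Quantile normalization, and the block together with either normalization, were chosen after seeing the data. The count of genes called by limma, 0 as reported, was 156 with the replicate block, 1 when a gene was represented by its most variable probe set (interquartile range), 53 after cyclic loess, 129 after cyclic loess with the block, 55 after quantile normalization, 120 after quantile normalization with the block, and 56 with array weights. It was 43 with pair 4 left out, and with the block 73, 79, 42 and 58 with pair 1, 2, 3 or 4 left out. At an unadjusted p under 0.05 the reported fit had 336 genes lower and 141 higher. Leaving out any single array called 0 genes. Of probe sets, 1 was called as reported, 216 with the replicate block, 60 after cyclic loess, 65 after quantile normalization, 54 with array weights, 0 to 1 without a single array, 0 with pair 1, 2 or 3 left out and 51 with pair 4 left out. Members without overlap numbered 0 as reported, 1 after either normalization with or without the block, 0 to 1 without a single array and 2 with pair 4 left out, with or without the block. The share of all genes apart also grew, to 6.59% below and 4.19% above with pair 4 left out, against 1.24% and 0.719% as reported. The replicate block changed no call of a member. The cause of these moves was not tested.

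Members near 0 changed sign. ATXN7L3 was −0.0525 with pair 1 left out and ranged from −0.039 to 0.115 without a single array. KAT2A was 0.0532 with pair 3 left out and ranged from −0.183 to 0.011. TADA3 was −0.0328 as the mean of its probe sets, −0.0624 and −0.031 with pair 1 or 4 left out, and ranged from −0.0757 to 0.138. SUPT3H was 0.0133 as the mean of its probe sets and ranged from −0.0987 to 0.0211, TRRAP ranged from −0.0776 to 0.20, and USP22 probe set 216957_at was 0.0289 with pair 2 left out and ranged from −0.0549 to 0.0109. With 4 arrays a group the unpaired 95% interval of USP22 includes 0, and 3 of its 4 probe sets read in the dim range.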
